A study of Mus musculus with 21 samples.

Results

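The transcripts of the mitochondrial genome were followed in mouse quadriceps muscle after a bout of exhaustive exercise. All gene symbols beginning with mt- were taken, which gave 37 of the 53738 symbols in the expression table. They comprised 13 genes for proteins (mRNA genes), 2 genes for ribosomal RNAs (rRNA genes) and 22 genes for transfer RNAs (tRNA genes). The mRNA genes encode subunits of respiratory complexes I, III and IV and of ATP synthase, and the rRNAs and tRNAs serve the ribosomes that translate these mRNAs inside the organelle. Both strands of the mitochondrial genome are transcribed into long precursors that span many genes. The tRNAs lie between the other genes like punctuation marks, and their excision by RNase P and the tRNase Z enzyme Elac2 releases the mRNAs and rRNAs, most of which then receive short poly(A) tails. Endurance exercise is a classical stimulus of mitochondrial content in skeletal muscle.

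Bulk RNA-seq libraries came from male wild-type C57/Bl6 mice in 7 groups of 3. Sedentary mice were the baseline control, not sampled after an exercise bout, and had no training. Whether they had been on the treadmill before is not stated. Untrained and trained mice, acclimatized to the treadmill, performed a final run to exhaustion, and muscle was taken right afterwards (0 h) or after another 6 h or 72 h. The trained mice had first run voluntarily on wheels for 12 weeks, without a rest period before the final run. No group was trained without the final run, so training and the response to the run cannot be told apart in trained muscle set against sedentary muscle.

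Several properties of the table bear on these genes. Replicate 1 of the untrained and of the trained group at 0 h had the same value in all 53738 rows, which leaves 20 distinct libraries, so results at 0 h are also given without this shared library. Values are in TPM, a unit that corrects for transcript length and scales each library to a fixed total, in which the depth of a library is unknown. Skeletal muscle was recognisable by its markers, which do not single out quadriceps. The 7 skeletal fibre genes summed to between 78230.0 and 103817 TPM per library, and the 3 cardiac genes to at most 1.41 TPM. The library kit selects polyadenylated RNA and does not mark the strand, so changes in the amount of an RNA and in its polyadenylation cannot be told apart, nor can reads from a gene and from RNA of the opposite strand. The value of a tRNA gene therefore does not measure the mature tRNA, which cannot be told apart here from longer precursors. In bulk tissue, fewer cells of a type and less RNA per cell cannot be told apart either.

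The genes were dense along the mitochondrial chromosome of GRCm39, and 9 pairs overlapped by between 1 and 43 bases. Genes on the plus strand of the reference are called heavy-strand genes here (12 mRNA, 2 rRNA and 14 tRNA genes) and those on the minus strand light-strand genes (mt-Nd6 and 8 tRNA genes). Sequences from the reference genome are shown because the results turn on these genes. Values of the tRNA genes for glutamate, glutamine, glycine and arginine fell after the run, and those for isoleucine differed with training at 6 h. The ends of mt-Nd5 and mt-Nd6 share bases on opposite strands. The sequences are written 5′ to 3′ on the strand of the gene, with the anticodon of each tRNA, or the 14 shared bases, in capitals.
mt-Te (chrM:14071-14139, minus strand): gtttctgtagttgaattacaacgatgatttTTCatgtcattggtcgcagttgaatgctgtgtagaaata
mt-Tq (chrM:3772-3842, minus strand): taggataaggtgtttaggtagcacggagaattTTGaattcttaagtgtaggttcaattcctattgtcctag
mt-Tg (chrM:9391-9458, plus strand): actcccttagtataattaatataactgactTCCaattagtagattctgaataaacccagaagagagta
mt-Tr (chrM:9808-9875, plus strand): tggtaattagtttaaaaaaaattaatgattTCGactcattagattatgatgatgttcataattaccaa
mt-Ti (chrM:3706-3774, plus strand): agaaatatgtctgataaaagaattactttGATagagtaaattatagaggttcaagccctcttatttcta
mt-Nd5 end (chrM:13544-13573, plus strand): atactcaaTTAATCTCGAGTAAtctcgata

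Mitochondrial transcripts held a large share of the TPM of every library, between 37.7% and 48.0%. The 13 mRNA genes accounted for 31.8% to 39.0%, the 22 tRNA genes for 5.05% to 10.3% and the 2 rRNA genes for 0.0848% to 0.276%. A single short gene led the mRNA class: mt-Atp8, for a small subunit of ATP synthase, is annotated with 204 bases and held between 16.6% and 20.9% of all TPM. Its last 43 bases are also the first bases of mt-Atp6, the ATP synthase subunit next to it, so that reads over these bases fit both genes. The other mRNA genes together held between 14.5% and 18.4% of TPM. The mRNA share and the ratios to it therefore rest largely on mt-Atp8. After mt-Atp8, the highest mean levels over the 21 columns belonged to mt-Co1 (27407 TPM) and mt-Co3 (26170.4 TPM), both core subunits of cytochrome c oxidase, and to mt-Atp6 (24913 TPM). The ranges of these 3 genes over the libraries overlapped. Cytochrome b (mt-Cytb, 14858 TPM) of complex III was near the complex I subunits mt-Nd4l (14787 TPM) and mt-Nd1 (14009.7 TPM). The complex I subunits mt-Nd4 (11473 TPM), mt-Nd2 (10044 TPM), mt-Nd6 (6245 TPM), mt-Nd5 (4783 TPM) and mt-Nd3 (3899.6 TPM) followed, with the cytochrome c oxidase subunit mt-Co2 at 4525 TPM.

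The tRNA genes spanned the widest range of levels. The 5 with the highest means were all light-strand genes: mt-Te for glutamate (23728 TPM), mt-Ta for alanine (13407 TPM), mt-Tp for proline (11326 TPM), mt-Tn for asparagine (6419 TPM) and mt-Tq for glutamine (4169 TPM). The lowest were the heavy-strand genes mt-Tf for phenylalanine (13.5 TPM), mt-Tv for valine (29.9 TPM) and mt-Td for aspartate (43.9 TPM). Within a library the values of the 22 tRNA genes were whole multiples, to within 0.01, of a common step, which lay between 4.10 and 6.54 TPM. By this measure mt-Te held between 2256 and 7971 steps per library, mt-Tg between 22 and 377, and mt-Tf between 0 and 7. As 1 step was worth the same TPM in every tRNA gene whatever its annotated length, tRNA levels are read here between groups and not against the mRNA genes.

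**Figure D1:**
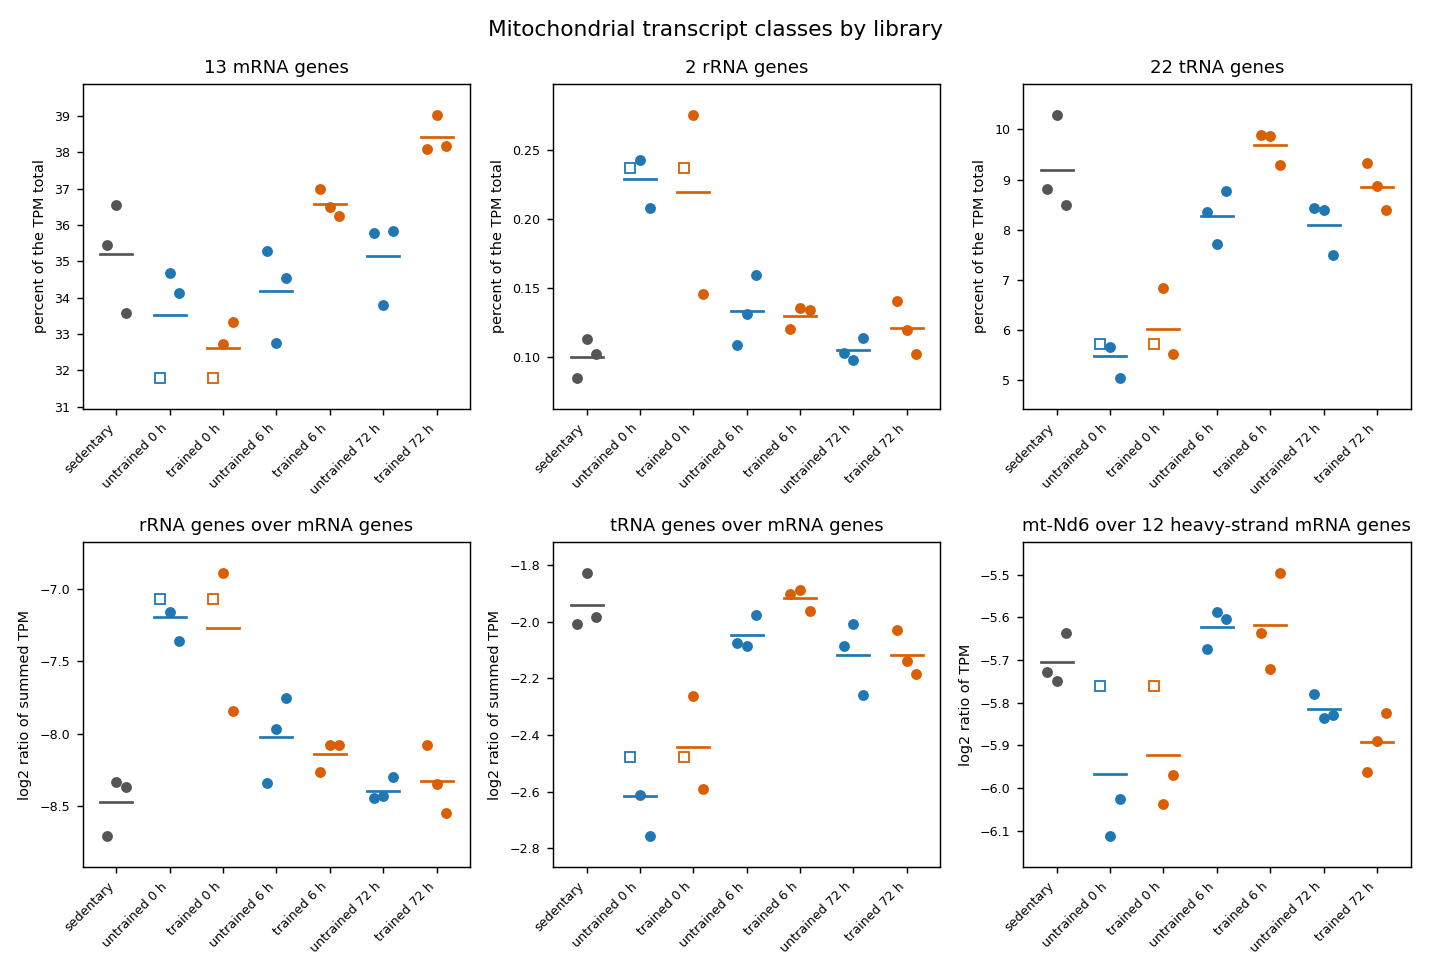
Share of the TPM total in each class of mitochondrial genes (upper row, percent) and log2 ratios between classes (lower row) in the 21 library columns, with each point a library, each line a group mean, and open squares the library present in both 0 h groups; the vertical axes do not start at 0. At 0 h the rRNA share is above, and the tRNA share below, that of every sedentary library.

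Immediately after the run the classes moved apart. The rRNA genes held 0.0848%, 0.113% and 0.102% of TPM in sedentary muscle, 0.237%, 0.243% and 0.208% in untrained muscle at 0 h, and 0.237%, 0.276% and 0.145% in trained muscle at 0 h. The tRNA genes held 8.81%, 10.3% and 8.50% in sedentary muscle, against 5.71%, 5.67% and 5.05% in untrained muscle at 0 h. They held 5.71%, 6.83% and 5.52% in trained muscle at 0 h. Neither 0 h group overlapped the sedentary group in either class, as the plot of classes shows. A comparison of 3 with 3 libraries cannot reach an exact two-sided p below 0.1. After the values were seen, the 5 distinct 0 h libraries of both training states were therefore also joined against the 3 sedentary libraries. As neither 0 h group overlapped the sedentary group, the joined p of both shares was bound to be the smallest possible. It adds no support beyond that separation. The joined rRNA share was higher by 0.122 percentage points and the tRNA share lower by 3.44 points (each p = 0.0179, the smallest that the exact permutation test can give here, and 0.0290 after Benjamini-Hochberg adjustment over the 13 class measures). The mRNA genes held 33.6% to 36.5% in sedentary muscle, which overlapped the 31.8% to 34.7% of untrained muscle at 0 h and lay above the 31.8% to 33.3% of trained muscle. Relative to the mRNA genes, the log2 ratio of rRNA was higher by 1.21 and that of tRNA lower by 0.60 in the joined 0 h libraries (each exact permutation p = 0.0179). These p-values too are the smallest possible and add no support beyond the separation of the groups. The 6 markers of slow and oxidative fibres, none of them at 0, moved as well at 0 h: they summed to between 670.1 and 1089 TPM in sedentary muscle, to between 445 and 600.2 TPM in untrained muscle and to between 473 and 853 TPM in trained muscle, which overlapped the sedentary range. Their part in the class differences was not tested.

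At 6 h the tRNA share of both groups overlapped that of sedentary muscle, while the rRNA share of trained muscle was still above it. The tRNA share was 8.28% ± 0.533 (SD, n = 3) in untrained and 9.68% ± 0.332 in trained muscle, and 9.20% ± 0.955 in sedentary muscle. The rRNA share was 0.133% ± 0.0256 in untrained and 0.130% ± 0.00840 in trained muscle, and 0.0998% ± 0.0142 in sedentary muscle. At 72 h the rRNA share was 0.105% ± 0.00810 in untrained and 0.121% ± 0.0193 in trained muscle, and both overlapped the sedentary range. The tRNA share at 72 h was 8.10% ± 0.531 in untrained muscle, below every sedentary library, and 8.86% ± 0.472 in trained muscle, which overlapped the sedentary group. The log2 ratio of tRNA to mRNA was lower by 0.18 in each 72 h group, again below every sedentary library (each exact permutation p = 0.1, the smallest that 3 against 3 allow). The 3 trained 72 h libraries had the highest mRNA shares of all, between 38.1% and 39.0%. The largest share of mt-Atp8 (20.9%) and that of the other mRNA genes together (18.4%) were also found among these libraries.

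Gene by gene, 17 of the 37 genes passed an adjusted p of 0.05 in untrained muscle at 0 h against sedentary muscle (limma on log2(TPM + 0.5), adjusted over the 11819 genes tested), where 7.46% of all tested genes passed. Both rRNA genes rose, and 2 mRNA and 13 tRNA genes fell. In all tested genes 6.49% passed upward and 0.973% downward, and their median log2 change was 0.10, whereas the medians were -0.08 for the 13 mRNA genes and -0.70 for the 22 tRNA genes. In trained muscle at 0 h, 10 genes passed against 9.37% of all genes (8.68% upward and 0.685% downward), with both rRNA genes higher and 3 mRNA and 5 tRNA genes lower, and the median of all genes was 0.13. Without the shared library 15 and 8 genes passed, and in models of the compared groups alone 5 and 4. With the 5 distinct 0 h libraries joined, 18 of 37 genes passed, against 11.6% of all genes (10.5% upward and 1.11% downward): both rRNA genes rose, and 4 mRNA and 12 tRNA genes fell. The untrained and trained comparisons share the sedentary libraries and 1 library at 0 h, and are not independent.

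The 2 rRNA genes rose together at 0 h. mt-Rnr1, the rRNA of the small mitochondrial ribosomal subunit, was at 403, 553 and 508 TPM in sedentary muscle, at 1221, 1242 and 1037 TPM in untrained and at 1221, 1368 and 739 TPM in trained muscle at 0 h. mt-Rnr2, the rRNA of the large subunit, was at 443, 575 and 506 TPM in sedentary, 1145, 1185 and 1041 TPM in untrained and 1145, 1382 and 712 TPM in trained muscle. Every 0 h library was above every sedentary library for both genes, with trained 0 h replicate 3 the lowest. The log2 rise of mt-Rnr1 was 1.26 ± 0.21 (SE, adjusted p = 0.000831) in untrained and 1.15 ± 0.21 (adjusted p = 0.00190) in trained muscle, and without the shared library 1.23 and 1.05. That of mt-Rnr2 was 1.15 (adjusted p = 0.000943) and 1.04 (adjusted p = 0.00222). The 2 rRNAs, which lie next to each other with mt-Tv between them, were at similar levels, with a log2 ratio of mt-Rnr2 to mt-Rnr1 between -0.26 and 0.14 in all libraries. At 6 h mt-Rnr1 was at 551, 711 and 848 TPM in untrained and 587, 699.5 and 693 TPM in trained muscle. These 6 h values were, in every library but untrained 6 h replicate 1, above the sedentary range, but the differences of 0.52 and 0.44 on the log2 scale did not pass the test. At 72 h mt-Rnr1 was at 521 ± 53.4 TPM (SD, n = 3) in untrained and 601 ± 91.1 TPM in trained muscle, and neither rRNA gene passed.

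As the heatmap of the 37 genes shows, falling tRNA genes lay on both strands. Among the light-strand genes 5 of 8 fell in untrained muscle at 0 h (median -0.62) and 4 of 8 in trained muscle (median -0.41). mt-Te was the clearest: 30578, 33146 and 27164 TPM in sedentary muscle, 13408, 12905 and 13102 TPM in untrained and 13408, 13934 and 14375 TPM in trained muscle at 0 h. Its 5 distinct 0 h libraries lay between 12905 and 14375 TPM, a narrow band well under the lowest sedentary library. Its log2 change was -1.20 ± 0.10 (SE, adjusted p = 1.01e-06) in untrained and -1.12 ± 0.10 (adjusted p = 1.86e-06) in trained muscle, and -1.22 and -1.09 without the shared library. mt-Tq stood at 4168, 4334 and 4523 TPM in sedentary, 2651, 2901 and 2657 TPM in untrained and 2651, 3618 and 3006 TPM in trained muscle at 0 h. The groups did not overlap, and the log2 changes of mt-Tq were -0.67 (adjusted p = 0.000460) and -0.50 (adjusted p = 0.00514). mt-Ta changed by -0.69 in untrained muscle and by -0.56 in trained muscle, the latter with an adjusted p of 0.0278 that became 0.0932 without the shared library. The changes of mt-Tp were small, -0.19 and -0.21, and neither passed without the shared library. mt-Tn changed by -0.71 in untrained muscle (adjusted p = 0.0177). It did not pass without sedentary replicate 2 or without untrained 0 h replicate 2 or 3 (adjusted p in limma up to 0.106). The other 3 light-strand genes did not pass in either group.

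Among the 14 heavy-strand tRNA genes 8 fell in untrained muscle at 0 h, with a median change of -1.90 over all 14, while in trained muscle only mt-Tg passed (median -0.98). Several of the falls were steep. mt-Tg was at 1041, 1333 and 1198 TPM in sedentary muscle, 357, 394 and 116 TPM in untrained and 357, 568 and 333 TPM in trained muscle at 0 h. mt-Tr was at 1524, 1556 and 1080.3 TPM in sedentary, 416, 534 and 154 TPM in untrained and 416, 739 and 717 TPM in trained muscle. Both genes were lower in every 0 h library than in every sedentary library, and untrained 0 h replicate 3 was the lowest of all. The log2 change of mt-Tg was -2.22 ± 0.40 (SE, adjusted p = 0.00211) in untrained and -1.54 ± 0.40 (adjusted p = 0.0244) in trained muscle, the latter with an adjusted p of 0.0830 without the shared library. That of mt-Tr was -2.07 ± 0.43 (adjusted p = 0.00666) in untrained muscle, while in trained muscle it was -1.18 and did not pass. In the limma model of only the groups compared, mt-Tf alone of these 8 genes still passed in untrained muscle. There mt-Tg and mt-Tr had adjusted p-values of 0.0904 and 0.107.

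The genes mt-Th, mt-Ts2 and mt-Tl2, for histidine, serine and leucine, follow each other directly on the heavy strand between mt-Nd4 and mt-Nd5. In untrained muscle at 0 h all 3 fell, with log2 changes of -2.08, -2.10 and -1.92 (adjusted p = 0.0147, 0.00531 and 0.0106). Without untrained 0 h replicate 3 the changes of mt-Th and mt-Tl2 were -1.46 and -1.26, and mt-Th did not pass without that library (adjusted p = 0.0642) or without sedentary replicate 3. In trained muscle their changes of -1.30, -1.29 and -1.05 did not pass. mt-Tm, for methionine, changed by -0.71 in untrained muscle, with an adjusted p of 0.0339 that became 0.0813 without the shared library. mt-Tf and mt-Tv also passed as lower, but at levels of a few steps. mt-Tf was at 2 or 3 steps in each sedentary library and was listed at 0 in all 3 untrained 0 h libraries. mt-Tv was at 6, 7 and 14 steps in sedentary and at 2, 3 and 0 steps in untrained muscle at 0 h, so no fold is given for either gene. Without these 2 genes the median change of the other 12 heavy-strand tRNA genes was -1.30 in untrained and -0.71 in trained muscle. Not every heavy-strand tRNA gene was lower. In untrained muscle at 0 h mt-Ti was at 2163, 1647 and 1482 TPM and in sedentary muscle at 1369, 1765 and 1651 TPM, and the groups overlapped. The other 5 heavy-strand genes also did not pass at 0 h. As a class, the heavy-strand tRNA genes held 1.07%, 1.25% and 1.17% of TPM in sedentary muscle and 0.488% to 0.975% in the 0 h libraries (exact permutation p = 0.0179 for the joined groups). With groups that do not overlap, this smallest possible p adds no support beyond that separation. Among 650 nuclear genes for small RNAs that were tested alongside, 10 rose and 7 fell in untrained muscle at 0 h, with a median change of 0.03. Of all tested genes 6.49% rose and 0.973% fell. The changes of these small RNA genes ran from -4.33 to 4.87, and their levels were not matched to those of the tRNA genes.

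**Figure D2:**
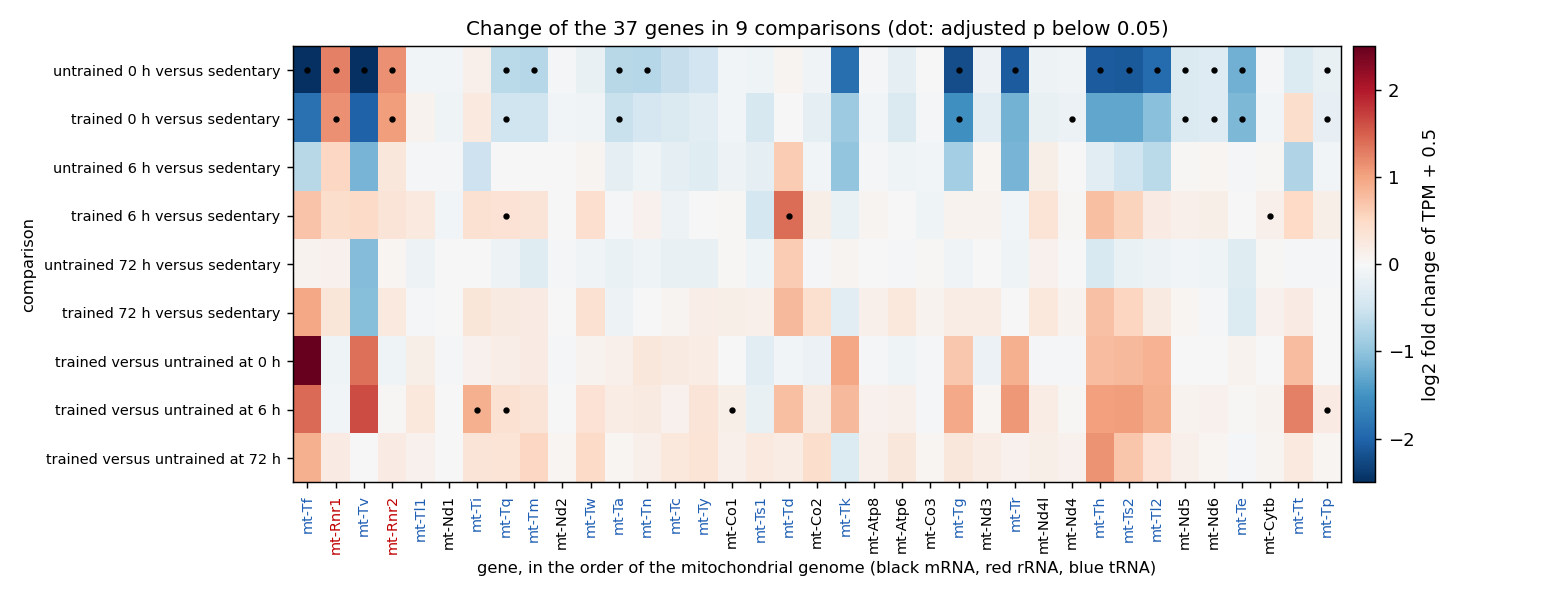
Log2 fold change of TPM + 0.5 for the 37 genes, ordered along the mitochondrial genome, in 9 comparisons (rows), with a dot where the adjusted p of limma was below 0.05; colours end at 2.5 in either direction. Dots are most frequent in the 2 rows for 0 h, where mt-Rnr1 and mt-Rnr2 are red and most tRNA genes blue.

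Among the mRNA genes the changes at 0 h were small, and mt-Nd5 and mt-Nd6 fell in both groups. Both encode subunits of complex I and their ends meet on opposite strands over the 14 bases printed above. mt-Nd5 was at 4913, 5072 and 5066 TPM in sedentary, 3597, 4106 and 4026 TPM in untrained and 3597, 3964 and 4239 TPM in trained muscle at 0 h. mt-Nd6, the only light-strand mRNA gene, was at 6550.1, 6660.2 and 6601 TPM in sedentary, 5739, 4929.9 and 5145 TPM in untrained and 5739, 4898 and 5221 TPM in trained muscle. Neither gene overlapped between 0 h and sedentary muscle, as the plot of 9 genes by library shows. On the log2 scale mt-Nd5 changed by -0.36 (adjusted p = 0.00179) in untrained and -0.35 (adjusted p = 0.00211) in trained muscle, and mt-Nd6 by -0.33 (adjusted p = 0.00596) and -0.32 (adjusted p = 0.00606). Without the shared library mt-Nd5 changed by -0.30 and -0.29 and mt-Nd6 by -0.39 and -0.38, and all 4 passed. At 6 h mt-Nd6 was at 6655 to 6946 TPM in untrained muscle, which overlapped the sedentary range, and at 6778 to 7835 TPM in trained muscle, which lay above it, and neither gene passed at 6 h. mt-Nd4, another complex I subunit, also passed in trained muscle at 0 h (-0.14, adjusted p = 0.0209), with 11404, 11738 and 11636 TPM in sedentary muscle and 10454, 10471 and 10535 TPM at 0 h. The remaining 10 mRNA genes did not pass in either 0 h group on the deposited scale. When TPM was rescaled to the genes outside the mitochondrial genome, 7 and 8 of the 13 mRNA genes passed, all lower. In the joined 0 h comparison mt-Atp6 passed narrowly (-0.33, adjusted p = 0.0499), although its groups overlapped. With the nuclear copy Gm10925, described below, added to mt-Atp6, its changes at 0 h were -0.02 in untrained and -0.04 in trained muscle. Neither passed in limma (adjusted p = 0.805 and 0.475), and the joined comparison was not run with copies. With quantile normalization the changes of mt-Nd5 were -0.18 in both groups and did not pass (adjusted p = 0.450 and 0.473). mt-Nd6 in trained muscle was at -0.18 and did not pass when TPM was rescaled to the mitochondrial mRNA genes other than mt-Atp8. The log2 ratio of mt-Nd6 to the 12 heavy-strand mRNA genes was lower by 0.28 in the joined 0 h libraries (exact permutation p = 0.0357, adjusted p = 0.0516). It was also below every sedentary library at 72 h, by 0.11 in untrained and 0.19 in trained muscle (each exact permutation p = 0.1, the smallest that 3 against 3 allow).

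**Figure D3:**
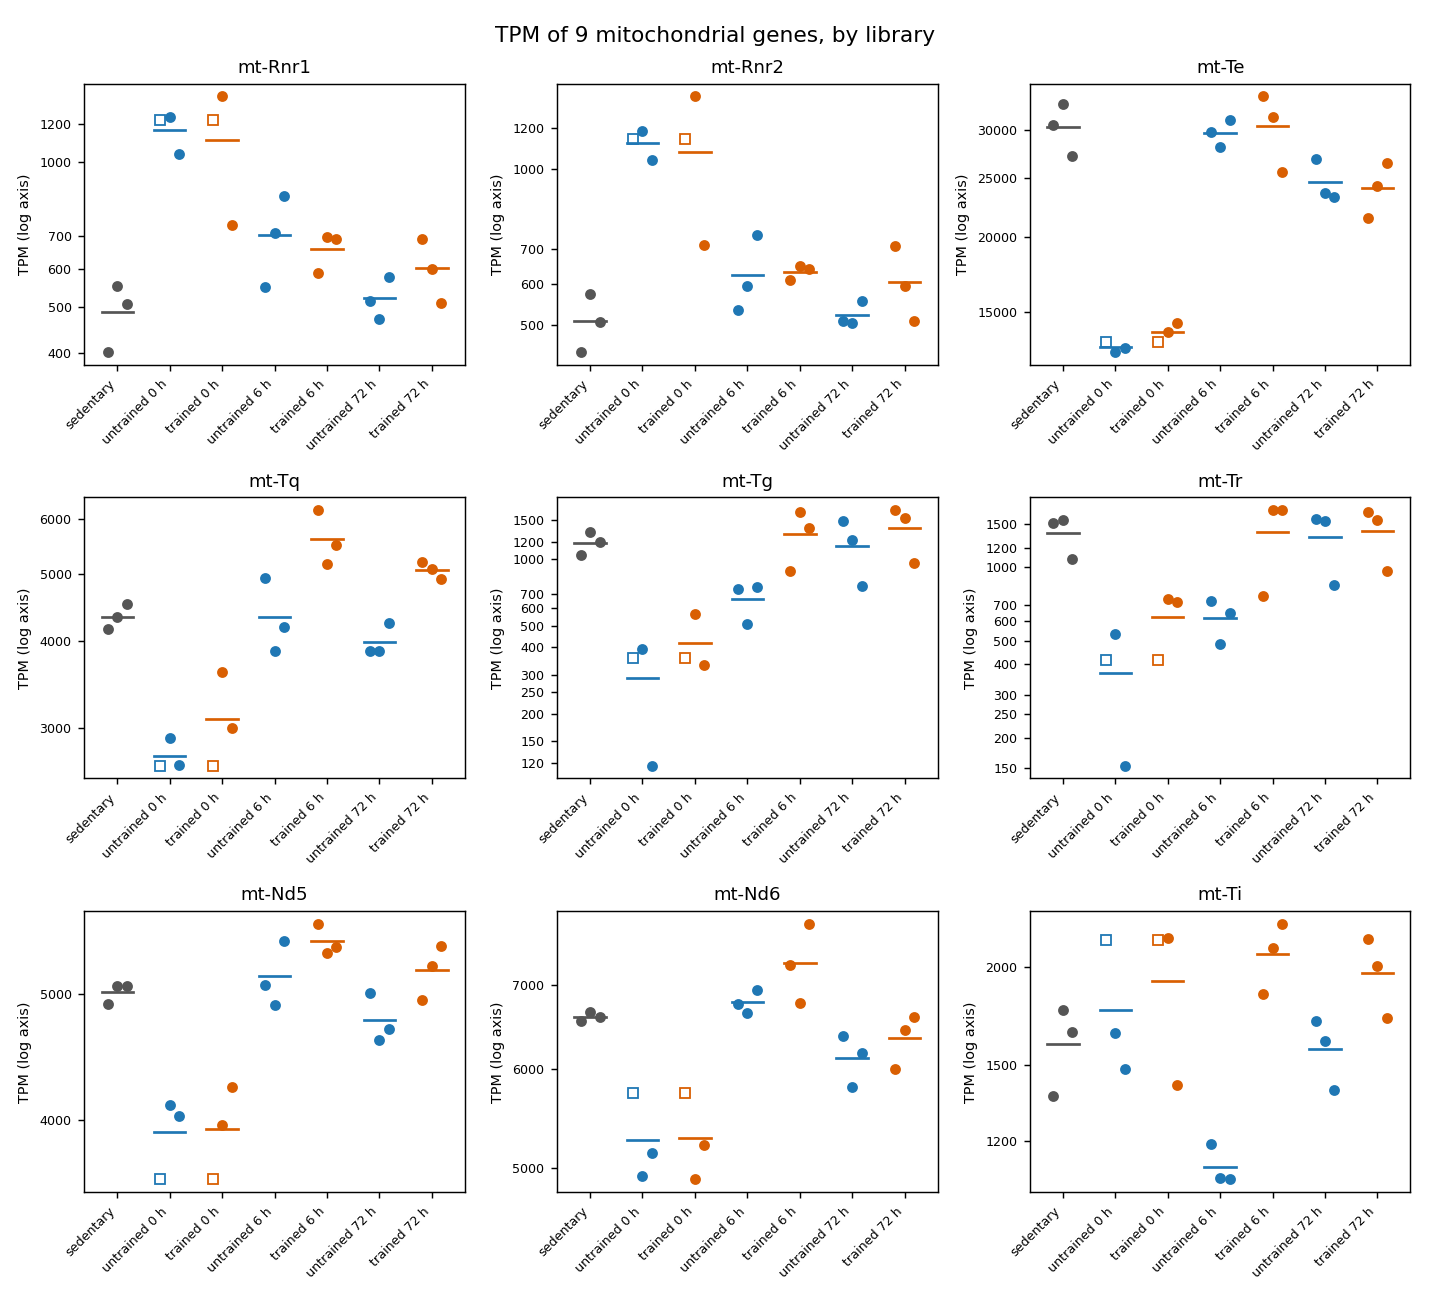
TPM of 9 mitochondrial genes in the 21 library columns on log axes, with points, group means and open squares as in the plot of classes. The genes mt-Te, mt-Tq, mt-Nd5 and mt-Nd6 are lower in every 0 h library than in every sedentary library, mt-Rnr1 and mt-Rnr2 are higher, and mt-Ti separates trained from untrained libraries at 6 h.

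Later after the run few genes differed from sedentary muscle. At 6 h in untrained muscle 0 of 37 genes passed in limma (5 at an unadjusted p below 0.05), where 9.47% of all genes passed. In trained muscle at 6 h 3 of 37 genes passed, all higher, against 10.4% of all genes (5.72% upward). These were mt-Cytb (0.12 on the log2 scale, adjusted p = 0.0405), mt-Tq (0.37, adjusted p = 0.0292) and mt-Td (1.39, adjusted p = 0.0254). Of the 6 fits without 1 library, mt-Cytb and mt-Td passed in 1 each and mt-Tq in 2, and mt-Cytb passed in 7 of 15 other alternatives. mt-Td rested on low values, with 17, 15 and 14 steps in trained muscle at 6 h and 8, 3 and 5 in sedentary muscle. At 72 h 0 genes passed in untrained muscle (1 at an unadjusted p below 0.05) and 0 in trained muscle (8 at an unadjusted p below 0.05), where 0.00846% and 0.254% of all genes passed. mt-Te was then at 26912, 23634 and 23279 TPM in untrained and 21451, 24226 and 26431 TPM in trained muscle. All 6 values lay under the lowest sedentary library, but the changes of -0.30 and -0.33 had adjusted p-values of 0.801 and 0.167. mt-Co1 in trained muscle at 72 h, at 30268, 30986 and 30537 TPM, was above the sedentary values of 26303, 28104 and 28346 TPM, and the difference of 0.15 had an adjusted p of 0.105. Over all 7 groups, 24 of the 37 genes passed an F test for any difference, and 34.6% of all genes did. Of the 7 tRNA genes that passed in no comparison between groups, mt-Ty, for tyrosine, passed this test (adjusted p = 0.0483, and 0.118 without the shared library).

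Trained and untrained muscle were then compared at each time after the run. Since no group was trained without the run, a standing difference between trained and untrained muscle and a different response to the run cannot be told apart here. At 0 h 0 of 37 genes passed (1 at an unadjusted p below 0.05), as did 0% of all genes, and the shared library sat in both groups. At 6 h 4 of 37 genes passed, all higher in trained muscle, where 4.56% of all genes passed and 1.67% were higher. The largest of these differences was in mt-Ti, for isoleucine. It was at 1188, 1076 and 1072 TPM in untrained and at 1847, 2115 and 2269 TPM in trained muscle, a log2 difference of 0.90 ± 0.17 (SE, adjusted p = 0.00508). The untrained values lay under and the trained values over the sedentary range of 1369 to 1765 TPM. mt-Tq, whose gene overlaps that of mt-Ti by 3 bases on the other strand, was at 4937, 3871 and 4196 TPM in untrained and 6174, 5173 and 5494 TPM in trained muscle (0.38, adjusted p = 0.0458). mt-Tp (0.20, adjusted p = 0.0368) and mt-Co1 (0.15, adjusted p = 0.0403) also passed, without overlap between the groups. Except for mt-Ti, each of these calls was lost in several alternatives. At 72 h 0 genes passed (10 at an unadjusted p below 0.05), and 0.415% of all genes did. The heavy-strand tRNA genes held 0.979%, 0.713% and 0.893% of TPM in untrained and 1.14%, 1.64% and 1.74% in trained muscle at 6 h, without overlap (exact permutation p = 0.1, the smallest that 3 against 3 allow). At 6 h the 6 markers of slow and oxidative fibres, none of them at 0, summed to between 363 and 497 TPM in untrained and between 503 and 1246 TPM in trained muscle, and in sedentary muscle to between 670.1 and 1089 TPM. At 72 h their direction was the opposite, with 313 to 448 TPM in trained and 490 to 720 TPM in untrained muscle, without overlap. The 7 skeletal fibre genes summed to less in trained than in untrained muscle without overlap, with 78230.0 to 85103 against 88000.5 to 93485 TPM at 6 h and 84154 to 88343 against 90970.4 to 96224 TPM at 72 h. The part of either marker list in these differences was not tested.

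Averaged over the 3 time points, mt-Ti (0.44, adjusted p = 0.0276), mt-Tq (0.30, adjusted p = 0.0158) and mt-Co1 (0.09, adjusted p = 0.0417) were higher in trained muscle, 3 of 37 genes against 2.06% of all genes (0.499% upward). Without the shared library mt-Ti and mt-Tq passed and mt-Co1 had an adjusted p of 0.0645. The median difference was 0.67 over the 14 heavy-strand tRNA genes, all of them above 0 (0.56 without mt-Tf and mt-Tv), 0.16 over the 8 light-strand tRNA genes and 0.05 over the 13 mRNA genes, beside -0.03 over all genes tested. As a class, tRNA genes held a larger share of TPM in trained muscle at each time point, by 0.817 percentage points at 0 h, by 1.40 at 6 h and by 0.759 at 72 h. The mean of these differences was 0.993 points (two-sided exact permutation within time points over 2400 assignments, without the shared library, p = 0.00500, and 0.0300 after Benjamini-Hochberg adjustment over 6 class measures). At 6 h the 3 trained libraries (9.30% to 9.88%) lay above the 3 untrained ones (7.71% to 8.77%), while at 0 h and 72 h the groups overlapped. The mRNA share was higher in trained muscle by 2.39 points at 6 h and 3.30 points at 72 h and lower by 1.37 points at 0 h. Its mean difference of 1.44 points had an exact permutation p of 0.05 and an adjusted p of 0.127. The rRNA share (p = 0.980), the log2 ratios of rRNA to mRNA (p = 0.773) and of tRNA to mRNA (p = 0.0633), and that of mt-Nd6 to the heavy-strand mRNA genes (p = 0.928, each by the same exact permutation test) did not pass.

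Part of the signal of several mRNA genes was listed under nuclear copies. Segments of mitochondrial DNA have been inserted into chromosomes during evolution, and some of them are near-identical to the present mitochondrial genes. In the annotation, 12 nuclear genes aligned to a mitochondrial gene at 95% identity or more over at least 100 bases, and another was found by its RefSeq synonym. Of these 13 genes 11 were listed in the table, and they summed to between 73790.5 and 88952 TPM per library, equal to between 15.5% and 22.5% of the TPM of the mitochondrial genes. Gm28661, identical to mt-Co2 over 681 bases, held a mean of 22872 TPM, far above the 4525 TPM of mt-Co2 itself. Likewise Gm10222, identical to mt-Nd4l over 294 bases, held 31129 TPM and Gm28438, at 99.7% identity to mt-Nd3, held 10029 TPM. How the quantification divides reads between such copies cannot be seen from the table.

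**Figure D4:**
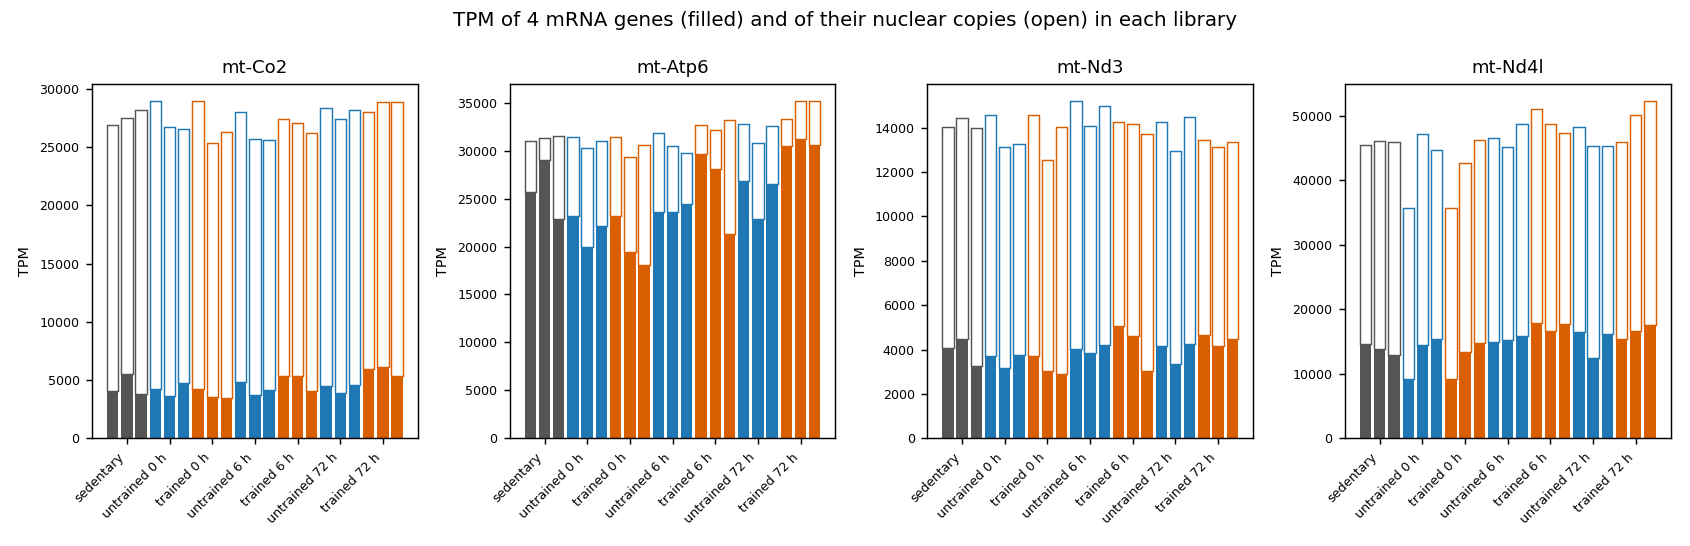
TPM of mt-Co2, mt-Atp6, mt-Nd3 and mt-Nd4l (filled bars, from 0) with the TPM of their nuclear copies stacked on top (open bars) in the 21 library columns, ordered by group with replicates 1 to 3 from left to right. Relative to its mean, though not always in TPM, the sum varies less between libraries than the filled part does.

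The division between gene and copy differed from library to library, which is the boundary between filled and open bars in the plot of nuclear copies. The share on the mitochondrial gene ranged from 59.2% to 92.6% for mt-Atp6 with Gm10925 and from 13.2% to 21.3% for mt-Co2 with Gm28661. When gene and copy were summed, the coefficient of variation over the 21 columns fell from 15.5% to 4.91% for mt-Atp6, from 18% to 4.24% for mt-Co2, from 15.6% to 5.0% for mt-Nd3 and from 16.2% to 8.84% for mt-Nd4l. For mt-Co1 with Gm29216 it went from 6.59% to 7.08%. In TPM the range was wider in the sum for mt-Co2 (25356 to 29010 TPM, against 3477 to 6137 TPM alone), mt-Nd3 and mt-Nd4l. It was narrower for mt-Atp6 (29325 to 35232 TPM, against 18099 to 31218 TPM alone). In the fit with summed values, the mRNA changes that passed were those of mt-Nd5 and mt-Nd6 at 0 h and of mt-Cytb at 6 h. No copy was added to these genes, so their own values were unchanged and their passing is no check against copies. mt-Co1 in trained against untrained muscle at 6 h (0.16, adjusted p = 0.199) and mt-Nd4 in trained muscle at 0 h (-0.10, adjusted p = 0.152) no longer passed. For mt-Co2 in trained against untrained muscle at 72 h, the difference of 0.44 in the gene alone was 0.03 in the sum. mt-Nd4l, at 9157 TPM in the shared library and at 12475 TPM or more in every other, stayed lowest there also with its copy added (35738 TPM, the lowest sum of all libraries).

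Nuclear genes that serve mitochondrial transcripts were counted beside them. Of 53 genes for mitochondrial transcription, DNA maintenance and RNA processing 49 were tested, and at 0 h 1 passed in each group, upward (medians 0.11 and 0.13), where 7.46% and 9.37% of all genes passed. It was Tbrg4, a FASTK-family protein of mitochondrial RNA stability, which rose by 0.24 in untrained (adjusted p = 0.00950) and by 0.23 in trained muscle (adjusted p = 0.0117). At 6 h 4 of the 49 passed in untrained muscle, where 9.47% of all genes did: Tbrg4 (0.28) and Fastkd1 (0.34), of the same family, rose, and Mterf2 (-0.44), of the mitochondrial transcription termination factor family, and Tfb1m (-0.28), which methylates the small rRNA, fell. At the same time in trained muscle 6 passed, where 10.4% of all genes did. All 6 were higher: Fastkd1 (0.75), Tbrg4 (0.30), Twnk (0.32), the mitochondrial DNA helicase, Mrm1 (1.98) and Mrm3 (0.41), methyltransferases of the large rRNA, and Lrpprc (0.18), which stabilises mitochondrial mRNAs. Between trained and untrained muscle at 6 h 3 of the 49 passed, all higher in trained muscle, where 4.56% of all genes passed and 1.67% were higher. They were Mterf2 (0.56, adjusted p = 0.000635), Fastkd1 (0.40, adjusted p = 0.0188) and Lrpprc (0.22, adjusted p = 0.0199). Lrpprc and Mrm1 are named after their values were seen. Averaged over the time points Mterf2 alone of the 49 passed (0.21), where 2.06% of all genes did.

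For mitochondrial tRNA charging 25 symbols were searched, which included old and new names of Gars1 and Kars1. Of these 23 were listed and 21 were tested. At 0 h 1 passed in untrained muscle (Mtfmt, which formylates the initiator tRNA, -0.33) and 2 in trained muscle (Vars2 and Ears2, the synthetases for valine and glutamate, 0.44 and 0.29). Of all tested genes 7.46% and 9.37% passed in these comparisons. At 6 h 2 passed in each group against sedentary muscle, where 9.47% and 10.4% of all genes did. Yars2, the synthetase for tyrosine, was higher in trained than in untrained libraries at 6 h (0.41, adjusted p = 0.0223), 1 of 21 genes where 4.56% of all genes passed. Of 72 nuclear genes for respiratory chain subunits 68 were tested. At 0 h 0 passed in untrained muscle (16 at an unadjusted p below 0.05) and 1 in trained muscle, where 7.46% and 9.37% of all genes did. The medians were 0.13 and 0.12 beside 0.10 and 0.13 over all genes. At 72 h 0 genes of the 3 lists passed against sedentary muscle in limma, where 0.00846% of all genes passed in untrained and 0.254% in trained muscle.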

How the data were processed

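Quadriceps RNA libraries were made with a TruSeq RNA Library Prep Kit v2, and the authors mapped paired reads to GRCm39 with STAR 2.7.9 and deposited TPM values per gene symbol from salmon 1.5.0 (submitters' processing notes and methods). TPM corrects for transcript length and scales each library, here to between 997304 and 997921, so depth is unknown and precision comes from the 3 libraries per group. P-values measure the spread between separately labelled samples.

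TPM values were transformed to log2(TPM + 0.5), which understates changes of low genes. The 11819 genes whose mean reached 1 TPM, all 37 members included, were fitted with limma 3.58.1 (R 4.3.3) in 1 model of 7 group means with a variance trend, and p was adjusted by Benjamini-Hochberg over all genes tested. "Passed" is an adjusted p below 0.05. Class shares and ratios were compared by exact permutation tests (Python 3.11.15), trained against untrained within time points and without the shared library. Nuclear copies were found with blastn 2.17.0 on the exons of the GRCm39 annotation. Anticodons were located in the genome sequence. Columns without a sample numbered 0.

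All mRNA and rRNA genes are named, and tRNA genes where they passed, were among the 5 highest or bound a range. The procedures were tested on simulated data. Members, gene lists and tests were chosen with earlier results of these data known, and alternatives with the shared library, joined 0 h groups, nuclear copies or mitochondrial rescaling were added after seeing the data. Further alternatives were other pseudocounts, filters, scalings and variance models, a replicate block, a fit of only the groups compared, and leaving out each library.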

Additional observations from a re-analysis of the deposited data

Results flagged for a closer look

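Differences between trained and untrained muscle that passed the test of the difference itself are listed for a closer look. At 6 h these were mt-Ti (0.90 on the log2 scale), mt-Tq (0.38), mt-Tp (0.20) and mt-Co1 (0.15), and averaged over the 3 time points mt-Ti (0.44), mt-Tq (0.30) and mt-Co1 (0.092), all higher in trained muscle. In the 15 alternatives and the 6 fits without 1 library, mt-Ti at 6 h passed in all but the fit of only the groups compared (adjusted p = 0.0505). Its log2 difference there and elsewhere lay between 0.82 and 1.00. Over the time points mt-Tq failed without a filter on low values (adjusted p = 0.0665) and passed in the other 14 alternatives and all 18 fits without 1 library, and mt-Ti failed without a filter (adjusted p = 0.0740) and in 6 of the 18. The average of mt-Co1 passed in only 4 of the 15 alternatives and 4 of the 18 fits without 1 library. The groups hold 3 libraries, too few for the test of single outlying samples.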

How the results depend on the processing

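Of the 813 values of single genes under alternatives, 630 kept their direction and side of the threshold, 182 no longer passed and 1 turned: mt-Nd4 in trained muscle at 0 h was 0.0028 when TPM was rescaled to the mitochondrial mRNA genes other than mt-Atp8, which by construction centres these genes near 0. At 0 h the rises of both rRNA genes in untrained muscle and the falls of mt-Te in both groups passed in all alternatives and without each library. In trained muscle the rRNA rises failed only in the fit of the groups compared alone (adjusted p = 0.105 for mt-Rnr1 and 0.120 for mt-Rnr2). Median-of-ratios scaling moved the median of all genes at 0 h from 0.10 to -0.0042 in untrained and from 0.13 to -0.0026 in trained muscle. When TPM was rescaled to genes outside the mitochondrial genome, 7 and 8 mRNA genes passed at 0 h, all lower.

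In models of the compared groups alone, 5 genes passed in untrained and 4 in trained muscle at 0 h, 0 in trained muscle at 6 h and 0 between trained and untrained muscle at 6 h. In trained muscle at 0 h the number was 5 without a filter, 6 with mitochondrial rescaling and 6 with quantile normalization. In untrained muscle at 6 h it was 1 with nuclear rescaling, quantile normalization, sample weights or without the shared library. In trained muscle at 6 h it was 0 without a filter and 1 with median-of-ratios or mitochondrial scaling, and at 72 h it was 1 with mitochondrial rescaling or sample weights. Between trained and untrained muscle at 6 h it was 1 without a filter, with median-of-ratios, mitochondrial scaling or no trend, and 2 with quantile normalization or robust variances. With sample weights it was 4 at 72 h and 7 over the time points. Without a filter it was 0 over the time points, and 15 genes passed for any difference among the 7 groups.

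The mean trained difference in mRNA share was 2.06 points without small RNAs in the total (exact permutation p = 0.0200) and 1.59 with the shared library kept (p = 0.0325), and the tRNA to mRNA ratio was 0.14 with nuclear copies added (p = 0.0375). The rRNA share difference was 0.0012, 0.0016 and 0.00086 without small RNAs, with medians and with the shared library, and the mt-Nd6 ratio 0.0088 without mt-Atp8 and mt-Nd4l and 0.0075 with copies. None of these turned values had passed. The cause of these shifts was not tested.

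Leaving out 1 library at a time gave 12 to 17 genes in untrained and 6 to 11 in trained muscle at 0 h, 0 to 1 in each group at 6 h, and 0 at 72 h. The 3 genes of trained muscle at 6 h were thus 1 or 0 without any of its libraries or any sedentary one. Between trained and untrained muscle it gave 0 to 1 at 0 h, 1 to 5 at 6 h, 0 at 72 h, 1 to 5 over the time points and 21 to 24 for any difference. The share differences ranged from 1.2 to 1.62 (mRNA), -0.0226 to 0.0209 (rRNA) and 0.776 to 1.21 points (tRNA), and the log2 ratios from -0.21 to 0.10 (rRNA), 0.074 to 0.18 (tRNA) and -0.0232 to 0.0141 (mt-Nd6). The rRNA ratio turned to 0.10 without trained 0 h replicate 3. In trained muscle at 0 h 6 genes passed without sedentary replicate 2. The mRNA share difference passed without untrained 0 h replicate 2, untrained 6 h replicate 1 or trained 0 h replicate 2 (exact permutation p = 0.0308, 0.0367 and 0.0300).

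Replicate numbers are shared between groups and were not taken as a pairing in the main model. Deviations from group means correlated with a median r of 0.018 over 62 same-number pairs (lowest -0.12, highest 0.13). Over 126 different-number pairs the median r was -0.0052 (lowest -0.38, highest 0.25). With the replicate block, 17 and 10 genes passed at 0 h as before, and between trained and untrained muscle 1 at 6 h and 2 over the time points. Depth limits mt-Tf, mt-Tv and mt-Td, which rest on at most 17 steps per library.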
